A study of Mus musculus with 12 samples.

Results

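The lung profile was read from 3 arrays, 1 each of WT, p66KO and p53KO lung, out of 12 arrays in the series. These 3 were taken by their tissue label and set against the other 9, which were 3 arrays each of heart, liver and thymus. All mice were Sv/129 and 2 months old. WT mice carried neither deletion, p66KO mice lacked p66Shc, the Shc1 isoform that links oxidative stress to cell death, and p53KO mice lacked the tumour suppressor p53. Each array held total RNA pooled from 4 mice of 1 genotype, extracted with Trizol from whole tissue, and the labels do not say whether the pools of different tissues came from the same mice. Genotypes served as the repeats of a tissue, so the spread within a tissue (n = 3 arrays) holds differences between genotypes and between pools as well as array noise. Levels are log2 signals after RMA, the background correction, quantile normalization and probe set summary that the authors applied, and lung levels are always given in the order WT, p66KO and p53KO. A difference is the lung mean minus the highest of the heart, liver and thymus means unless stated otherwise, with its standard error (SE), and the adjusted p beside it is the largest of the 3 that limma gave against heart, liver and thymus.

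The lung exchanges gas across alveoli that are lined by flat type I cells and by type II cells, which secrete surfactant, the film of lipid and protein that lowers surface tension. Its conducting airways carry club cells, which secrete secretoglobins and oxidize inhaled compounds, and ciliated cells, which move mucus. Around these lie a dense capillary bed, an elastic matrix laid down by fibroblasts, smooth muscle of airways and vessels, a mesothelial cover and resident alveolar macrophages. In whole tissue, fewer cells of a type and less RNA per cell cannot be told apart.

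The tissue label was borne out by the defining lung epithelial markers on all 3 lung arrays. Sftpc, which encodes surfactant protein C and marks type II cells, read 14.63, 14.89 and 14.91 in lung and 6.08 to 9.35 on the 9 other arrays. Sftpb, which encodes surfactant protein B, read 13.51, 13.53 and 13.83 in lung and 8.08 to 8.52 elsewhere. For both genes every lung array lay above every other array, and the differences were 7.55 ± 0.64 for Sftpc (adjusted p = 2.53e-06) and 5.15 ± 0.13 for Sftpb (adjusted p = 4.12e-10). Scgb1a1, the secretoglobin of club cells, read 14.94, 15.27 and 15.41 in lung, but its thymus levels were 11.87, 13.22 and 7.13 in WT, p66KO and p53KO, so the thymus arrays spread over a far wider range than the lung arrays. Its difference of 4.47 ± 1.41 passed the threshold (adjusted p = 0.0352) and no longer passed when any 1 of the lung arrays (4.36 to 4.6) or the p53KO thymus array (2.66) was left out. Nor did it pass after repeated quantile normalization (3.92).

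**Figure D1:**
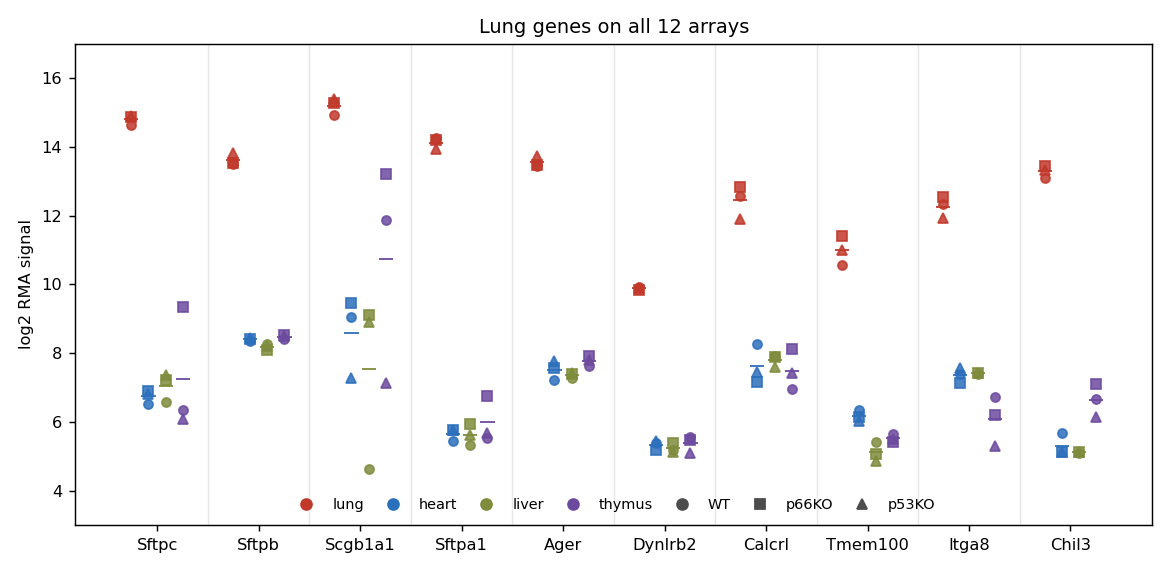
Log2 RMA signal (vertical axis) of 10 genes on the 12 arrays, with colour for tissue, symbol for genotype and a short line for the tissue mean. Lung arrays lie above all other arrays for each gene, by the least for Scgb1a1, whose p66KO thymus array reads 13.22.

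Several arrays carried transcripts typical of another tissue, and these values stand beside the results they touch. The 23 hepatocyte genes averaged 9.80, 9.0 and 6.95 on the lung arrays, 6.62 to 7.42 on the heart arrays and 6.23 to 7.04 on the thymus arrays, against 13.45 to 13.62 in liver. WT and p66KO lung thus lay above heart and thymus, whereas p53KO lung lay within their range. Albumin (Alb), the main plasma protein made by hepatocytes, read 13.13, 12.30 and 8.79 in lung, 9.62, 8.86 and 7.77 in heart and 7.83, 9.56 and 7.24 in thymus. The 21 cardiomyocyte genes averaged 8.32 to 8.83 in lung, 13.20 to 13.49 in heart and 6.64 to 6.65 in liver. On the WT, p66KO and p53KO thymus arrays they averaged 8.12, 8.08 and 6.94. Myh6, the alpha cardiac myosin chain, read 11.44, 10.64 and 10.06 in lung. The 20 thymocyte genes averaged 7.54 on the p66KO lung array, 6.49 and 6.96 on the other lung arrays and 9.70 to 10.93 in thymus. Their averages were 6.84 to 7.06 in heart and 6.56 to 6.79 in liver. The 18 salivary gland genes averaged 13.07 on the WT thymus array, 7.90 on the WT heart array and 5.65 to 6.08 on the 10 others. Agreement among the lung arrays was closest for WT and p66KO (r = 0.989 over probe sets, which are not independent) and lower for p53KO (0.964 and 0.975), and the gap between the 3' and 5' Gapdh control probe sets was 2.29, 1.32 and 0.66 on the lung arrays and 0.24 to 0.95 on the others. The part of these differences in the results was not tested except where a value without the array is given.

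**Figure D2:**
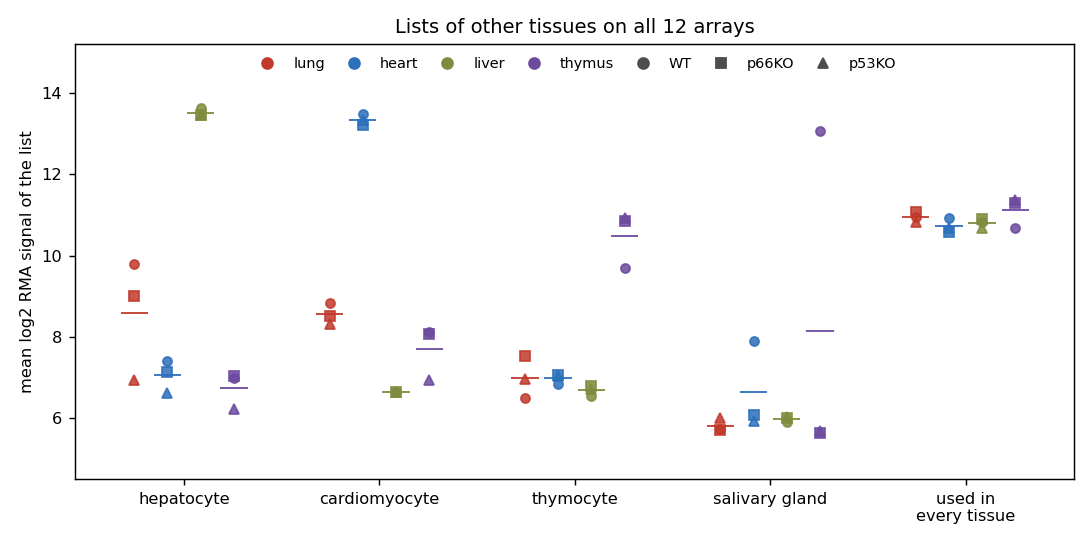
Mean log2 RMA signal (vertical axis) of genes typical of 4 other tissues and of genes used in every tissue, on the 12 arrays, with colour for tissue and symbol for genotype. Hepatocyte genes separate WT and p66KO lung (9.80 and 9.0) from p53KO lung (6.95), and salivary gland genes stand at 13.07 on the WT thymus array.

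The comparison asks which transcripts set lung apart from 3 other organs. Of 18193 genes, 783 (4.3%) were called higher in lung than in each other tissue, which required an adjusted p under 0.05 in all 3 contrasts and a difference of at least 1 on the log2 scale, that is 2-fold. By the mirror rule 16 genes (0.0879%) were called lower. None of the 23 hepatocyte, 21 cardiomyocyte or 20 thymocyte genes was called higher in lung by limma, and the count was also 0 at an unadjusted p under 0.05. The highest other tissue was liver for all 23 hepatocyte genes, heart for all 21 cardiomyocyte genes and thymus for 18 of the 20 thymocyte genes. These counts therefore cannot show whether transcripts typical of another tissue touched the calls. Among the 783, 92 reached a difference of 3, that is 8-fold, and are called lung-restricted here; all 3 lung arrays lay above all 9 others for each of the 92, for 763 of the 783 and for 1549 of all genes (8.51%). The tissue next to lung was heart for 439 of the 783, thymus for 213 and liver for 131. Over all 18193 genes the highest other tissue was heart for 8019, thymus for 5868 and liver for 4306. Against single tissues, 3693 genes (20.3%) were higher in lung than in heart and 3008 (16.5%) lower, 3285 (18.1%) were higher than in liver and 2368 (13%) lower, and 2699 (14.8%) were higher than in thymus and 1912 (10.5%) lower. The share of calls that were higher in lung depended on scaling. It was 55.1% against heart, 58.1% against liver and 58.5% against thymus as deposited, and 41.7%, 43.7% and 48.2% with each array centred on its median, which moved the median of lung minus liver over all genes from -0.04 to -0.19. Against thymus the share was also 48.2% after a repeated quantile normalization. Just inside the threshold lay Acot9 (1.001), Pcdhb3 (1.002) and Usp33 (1.003), and just outside it lay Stx11 (0.997), Cnfn (0.996) and Pdzk1ip1 (0.994).

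Type II cell genes led the profile. Of 20 measured genes on the type II list, 15 were called higher in lung, with a median difference of 3.92 against -0.39 over all genes. The 4 surfactant proteins were all among them. Sftpa1, a collectin that binds microbes and surfactant lipid, read 14.25, 14.19 and 13.94 in lung and 5.32 to 6.76 on the other arrays, a difference of 8.14 ± 0.28 (adjusted p = 1.84e-09), the largest of all genes on this scale. Its levels outside lung lay around or below the array medians of 6.23 to 6.42, where low signal limits the size of a difference. Sftpd, another lung collectin, read 12.69, 12.67 and 12.76 against 5.63 to 7.02 elsewhere (difference 5.78 ± 0.12). Spread among the lung arrays was small beside these differences, 0.31 for Sftpa1 and 0.10 for Sftpd.

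Genes that make, load and clear surfactant or guard the alveolus followed. Cxcl15, a chemokine of lung epithelium, read 13.99, 14.01 and 14.0 in lung and 6.0 to 7.24 elsewhere, and Slc34a2, the phosphate transporter of type II cells, read 13.54, 13.55 and 13.56 against 7.42 to 8.18. These genes varied by 0.02 and 0.03 among the lung arrays. Lpcat1, which remodels surfactant phosphatidylcholine, differed by 3.52 ± 0.21, Napsa, the protease that trims surfactant protein precursors, by 4.14 ± 0.19, and Etv5, a transcription factor that maintains type II cells, by 3.19 ± 0.30. Muc1, a membrane mucin, read 11.52, 11.13 and 10.93 in lung and 6.05 to 6.52 elsewhere. The 5 type II genes not called had levels near lung in another tissue or were low in lung. Abca3, the lipid pump of lamellar bodies, read 12.11, 11.98 and 11.98 in lung and 11.22, 10.98 and 11.13 in liver, a difference of 0.91 ± 0.23 that passed the test (adjusted p = 0.009) but not the 2-fold threshold, except after repeated quantile normalization (1.14). Ctsh (0.70), Scd1 (0.38) and Fasn (0.24), a cathepsin and a pair of fatty acid synthesis enzymes, were closer still to their highest other tissue, and Pgc (-0.41) read at most 6.71 in lung. On the wider list of surfactant lipid and protein handling, 7 of 25 measured genes were called, with a median of 0.26, and 5 of these also stand on the type II list. Adgrf5, a receptor that restrains surfactant pool size, differed by 2.63 ± 0.17, while Stard10, a phospholipid carrier, was lower in lung (10.34) than in liver (13.23, adjusted p against liver 0.000801), as were the fatty acid elongase Elovl6 (8.16 and 9.32, adjusted p 0.00742) and Insig1, which holds back lipid synthesis (8.26 and 9.59, adjusted p 0.0344).

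Promoter sequence from RefSeq (GRCm38.p6) is shown for 3 called epithelial genes, taken because their windows hold letters of interest, since NKX2-1, forkhead and C/EBP factors are known regulators of such genes. Each line gives the 250 bases before the annotated start on the gene's own strand, with capitals for CTCAAG, the core of NKX2-1 sites, and for the forkhead letters TGTTTAC and TGTTTGC, searched on both strands. Sftpb lies at chr6:72304360-72304609 (plus strand), Sftpa1 at chr14:41131538-41131787 (plus strand) and Scgb3a1 at chr11:49663345-49663594 (plus strand).
Sftpb: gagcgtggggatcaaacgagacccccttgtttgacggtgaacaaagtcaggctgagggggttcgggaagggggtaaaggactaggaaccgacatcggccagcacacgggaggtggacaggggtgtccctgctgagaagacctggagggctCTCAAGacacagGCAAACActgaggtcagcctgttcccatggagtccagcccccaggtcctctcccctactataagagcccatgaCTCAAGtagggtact
Sftpa1: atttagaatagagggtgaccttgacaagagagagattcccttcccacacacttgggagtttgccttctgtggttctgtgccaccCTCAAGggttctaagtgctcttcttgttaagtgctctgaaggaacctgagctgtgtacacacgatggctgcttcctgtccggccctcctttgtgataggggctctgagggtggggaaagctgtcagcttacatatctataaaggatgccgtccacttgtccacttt
Scgb3a1: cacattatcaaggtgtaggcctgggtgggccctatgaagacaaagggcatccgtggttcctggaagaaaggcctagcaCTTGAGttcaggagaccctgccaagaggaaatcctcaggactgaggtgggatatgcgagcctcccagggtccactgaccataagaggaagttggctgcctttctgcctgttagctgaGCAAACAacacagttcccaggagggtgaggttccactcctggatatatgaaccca
In Sftpb, CTCAAG begins 100 and 15 bases before the start and the reverse of TGTTTGC begins 88 bases before it, so the upstream pair lies within a few bases of each other. Sftpa1 holds CTCAAG 166 bases before the start, and Scgb3a1 holds its reverse at 172 bases and the reverse of TGTTTGC at 55 bases. Over all windows of 300 bases, from 250 before to 50 after a start, CTCAAG was found in 14.5% of 18109 windows of the genes tested and in 12.9% of 85 windows of lung-restricted genes, of which 66 of 92 had a window. The corresponding shares were 2.98% and 4.71% for TGTTTAC, 4.25% and 4.71% for TGTTTGC, and 9.39% and 12.9% for the C/EBP letters TTGCNNAA. The windows of Ager and Akap5, which have larger differences than Scgb3a1, hold none of these letters. A match of letters is a description and not a binding site.

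All 19 type I cell genes were called higher in lung, with a median difference of 2.97, and this was the only list with every measured member called. The lists were chosen with earlier results of these data known, which limits any comparison of shares between lists. Cldn18, a tight junction claudin, read 12.37, 12.82 and 13.05 in lung and 5.45 to 5.86 on the other arrays (difference 7.05 ± 0.19, adjusted p = 4.21e-10). Akap5, which anchors protein kinase A, read 11.71, 11.81 and 10.77 against 4.27 to 5.35, and Ager, the receptor for advanced glycation end products that marks type I cells, read 13.45, 13.47 and 13.75 against 7.22 to 7.91. No array of another tissue came near the lung levels of these 3 genes. Aqp5, a water channel shared with salivary gland, read 12.32, 12.19 and 12.16 in lung but 10.79, 7.36 and 7.12 in WT, p66KO and p53KO thymus, where the WT array also carried the salivary genes; its difference was 3.80 ± 0.69 (adjusted p = 0.0014). The epithelial sodium channel subunits Scnn1a, Scnn1b and Scnn1g, which clear alveolar fluid, differed by 2.29, 2.61 and 3.10, and Pdpn, a membrane glycoprotein, by 3.14. Heart came closest to lung for the weakest members. Hopx, a homeodomain protein without DNA binding, read 13.78, 13.94 and 13.98 in lung and 12.82, 12.57 and 12.72 in heart (difference 1.20 ± 0.23). Lmo7 differed by 1.08 and lost its call without the WT lung (1.01), the p66KO lung (1.01), the p66KO heart (1.04) or the p53KO heart array (1.0). The Lmo7 call was also lost after repeated quantile normalization (0.75) and with the mean of all probe sets (0.89). Col4a3, a basement membrane collagen chain, read 8.17, 9.31 and 10.37 in lung, the widest range of any called gene that peaked in p53KO lung, and its difference of 1.40 lost the call without the p66KO lung (1.39), p53KO lung (0.86), WT heart (1.31) or p53KO heart array (1.35), while its partner chain Col4a4 read 10.22, 10.41 and 10.43 and differed by 3.66. Repeated quantile normalization also left Col4a3 uncalled (1.19).

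Club and secretory cell genes were higher in lung as a smaller share, 6 of 20 with a median of 0.51, and several had levels near lung in thymus or liver. Scgb3a2, a secretoglobin, read 14.17, 14.35 and 14.24 in lung and 10.36, 11.16 and 6.70 in WT, p66KO and p53KO thymus (difference 4.84 ± 0.80), and Scgb3a1 read 11.97, 12.12 and 11.30 in lung and 9.26, 10.94 and 7.10 in thymus (difference 2.70 ± 0.68). For these 2 genes and Scgb1a1 the p66KO thymus array was the highest outside lung and the p53KO thymus array the lowest of the thymus arrays. Sftpc too was highest there among the thymus arrays, at 6.34, 9.35 and 6.08. Bpifa1, an airway antimicrobial protein, read 10.35, 10.11 and 8.59 in lung and 8.12, 9.82 and 7.22 in thymus, and was not called (difference 1.30 ± 0.57, adjusted p = 0.123). It was called without the p53KO lung (1.84) or the p66KO thymus array (2.01) and with array weights (2.60). Cbr2, a carbonyl reductase abundant in lung, differed by 3.51 ± 0.43, and Retnla, a resistin-like secreted protein, by 2.78 ± 0.36.

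Several detoxifying enzymes of club cells, unlike Cbr2, were not called, with liver near or above the lung level. Cyp2f2, the cytochrome that activates naphthalene in club cells, read 14.25, 14.22 and 14.17 in lung and 13.58, 13.69 and 13.69 in liver (difference 0.56 ± 0.93, adjusted p = 0.714). Every lung array thus lay above every liver array, and the SE draws on the spread within all the tissues. Lung was below liver for Aox3, an aldehyde oxidase (9.85 and 12.58, adjusted p against liver 7.02e-07), and Gsta3, a glutathione transferase (9.13 and 12.25, adjusted p 1.12e-06). Goblet cell genes stayed low in lung, with Muc5ac at 7.05, 6.97 and 7.38 and Agr2 at 4.56, 4.69 and 4.68, and Muc5b, the main airway mucin, at 8.14, 8.05 and 7.89 exceeded its next tissue by 0.63 ± 0.18, which was under the fold threshold. Clca1, a goblet cell protein, read 4.14, 7.29 and 4.42, so that it was above 5 on the p66KO lung array alone.

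Ciliated cell genes were called in 11 of 25 cases (median 0.73). Dynlrb2, a dynein light chain, read 9.93, 9.84 and 9.89 in lung and 5.09 to 5.57 elsewhere, a difference of 4.51 ± 0.16 (adjusted p = 1.84e-09). Tppp3, a tubulin binding protein, read 11.73, 11.75 and 11.15 against 6.52 to 9.11, and Foxj1, the transcription factor that turns on the motile cilium programme, read 8.04, 7.24 and 7.16 against 5.88 to 6.60 (difference 1.04 ± 0.21), a call lost without the WT lung (0.76) or WT heart array (0.90), with array weights (0.87) or after median centring (0.96). Rsph4a, a radial spoke protein, read 6.79, 6.82 and 5.31 and Ccdc39, which sets the spacing of ciliary dynein arms, 7.17, 6.90 and 4.51. Both were lowest on the p53KO lung array, where Ccdc39 lay within the range of the other tissues (3.99 to 4.59). The call of Ccdc39 (1.70) was lost without the WT (1.21) or p66KO lung (1.35) or any liver array (1.61 to 1.75), and the list had 7 to 11 members called when single arrays were left out, fewest without the WT lung array. With the mean of all probe sets Ccdc39 was not called (0.56), nor was it without probe sets ending in _x_at and _s_at (-0.08). Genes not called included the axonemal dyneins Dnah5 (4.97, 5.09 and 5.15 in lung) and Dnah9 (7.61, 7.22 and 7.42), and Mlf1 was highest in heart (10.71, 10.39 and 10.84 against 6.85, 7.59 and 6.60).

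Basal and neuroendocrine cell genes gave no call among 11 measured (limma, also 0 at an unadjusted p under 0.05), with a median of -0.37. Krt5 and Krt14, the basal keratins, read 8.06, 8.28 and 8.25 and 6.41, 6.79 and 6.25 in lung and were lower than in thymus (10.70 and 9.26, adjusted p against thymus 0.000337 and 8.11e-05), which has keratin-positive epithelium of its own. Trp63, the basal cell transcription factor, read 5.37, 5.33 and 5.45 in lung and 5.26 to 5.63 elsewhere, and the neuroendocrine granule protein Chga read 5.84, 6.03 and 6.58 against 5.89 to 6.96. Of 19 general epithelial genes 3 were called. These were the keratin Krt19 (3.45 ± 0.24), the adherens junction cadherin Cdh1 (1.80 ± 0.26) and Prom1 (1.72 ± 0.51), and Prom1 lost its call without the WT lung (1.6), p66KO lung (1.68), p66KO thymus (1.33) or p53KO thymus array (1.27). Repeated quantile normalization also left Prom1 uncalled (1.45). Without the WT thymus array 7 of the 19 were called, among them Cldn7 (2.87 against 1.80 with all arrays), Esrp1 (1.73 against 0.81) and Elf5 (1.21 against 0.89). Epcam, an adhesion protein of most epithelia, read 9.52, 9.50 and 10.02 in lung and 8.64 to 10.27 on the other arrays, so that the groups overlapped (difference -0.36 ± 0.23).

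Among 28 transcription factors of lung development and cell identity, 11 were called higher in lung (median 0.85). Sox2, which marks conducting airway, read 8.22, 8.27 and 7.03 in lung and 3.77 to 4.46 elsewhere (difference 3.75 ± 0.28). Tbx2, a T-box repressor of lung mesenchyme, read 8.72, 9.01 and 9.10 against 4.19 to 5.35 (difference 3.86 ± 0.20), and Tcf21, of lung fibroblasts, read 11.40, 11.80 and 11.04 with heart next at 8.02. Klf5, Cebpd, Klf4, Klf2, Erg, Sox18, Id1 and Hoxb5 made up the rest of the calls, with differences of 1.25 to 2.29. Of these, Klf5 (0.67) and Erg (0.89) were not called with the mean of all probe sets, nor Sox18 (0.97) after repeated quantile normalization. Foxa1 and Foxa2, forkhead factors of endoderm, did not pass against liver. Foxa1 read 9.66, 10.18 and 9.10 in lung and 9.03, 9.01 and 8.36 in liver (adjusted p = 0.317, called with array weights at 1.19 and without the WT thymus and p53KO lung arrays at 1.12), and Foxa2 read 10.42, 10.51 and 9.36 in lung and 9.69, 9.59 and 9.38 in liver (adjusted p = 0.213). Cebpa was lower in lung (11.21) than in liver (12.35, adjusted p against liver 0.00597), and Gata6 read 9.10 in lung and 9.58 in heart. Nkx2-1, the factor that specifies lung epithelium, was read by 1 probe set, at 5.43, 5.42 and 6.59 in lung and 5.17 to 5.85 elsewhere (adjusted p = 0.704). The p53KO lung array lay above the other tissues and the WT and p66KO lung arrays within their range.

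This list depended on which probe set stood for a gene, taken here as that with the highest mean signal. For 7 of the 17 transcription factors not called, another probe set was. No share over all uncalled genes stands beside this count, so it is not read as a trait of these factors. Tbx4, the T-box factor of lung mesenchyme, had a mean of 8.28 in lung on such a probe set and 4.72, 4.63 and 4.35 in heart, liver and thymus (difference 3.56, adjusted p = 3.72e-08), against 6.12, 7.17 and 7.66 in lung and a difference of 0.85 on the probe set used, which was called without the WT lung array (1.28). Foxf1, a forkhead factor of lung endothelium and mesenchyme, had 9.32 in lung and at most 6.33 elsewhere (2.99) against -0.29 on the probe set used, and Hoxa5, a homeobox gene of lung patterning, had 9.35 and at most 5.91 (3.44) against -0.84. Sox17 (2.58), Meox2 (1.68), Foxp2 (1.18) and Foxp1 (1.04) were the others. These probe sets are given because they were called, and the count of 11 is that of the rule. Probe sets also disagreed among called genes. Of all genes called higher in lung, 425 had more than 1 probe set. At least 2 probe sets were called for 188 of these 425, and all probe sets for 93.

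General and lung capillary endothelial genes were mostly called, as were those of the alveolar epithelium. On the general list 18 of 29 were called (median 1.5) and on the lung capillary list 20 of 25 (median 1.75). Heart was the next tissue for 24 of the 29 and 22 of the 25, and for 8019 of all 18193 genes. Calcrl, the receptor that binds adrenomedullin together with Ramp2, read 12.59, 12.84 and 11.91 in lung and 6.94 to 8.25 elsewhere (difference 4.63 ± 0.34, adjusted p = 5.12e-07), and Ramp2 read 13.19, 12.87 and 12.62 in lung with heart next at 10.35, 9.39 and 10.21 (difference 2.91 ± 0.29). Cldn5, the claudin of endothelial tight junctions, differed by 3.59 ± 0.17, Tek, the angiopoietin receptor, by 3.07 ± 0.30, Cdh5, the endothelial cadherin, by 2.14 ± 0.28 and Kdr, the main VEGF receptor, by 1.5 ± 0.17. Pecam1, a pan-endothelial adhesion protein, read 9.08, 9.67 and 10.07 in lung and 8.27, 8.01 and 8.51 in heart (difference 1.34 ± 0.31). The differences of these pan-endothelial genes thus ran from 1.34 to 4.63, while other members did not exceed heart by the rule. Flt1, a VEGF receptor, differed by 0.21 ± 0.22 (another probe set was called, at 1.43), Emcn, a sialomucin, by -0.09 ± 0.39 and Nos3, the endothelial nitric oxide synthase, by -0.96 ± 0.21, the last being lower in lung than in heart (adjusted p against heart 0.00394).

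On the capillary list, Tmem100, a target of ALK1 signalling in lung endothelium, read 10.56, 11.41 and 11.00 in lung and 4.85 to 6.36 elsewhere (difference 4.82 ± 0.22). Car4, a carbonic anhydrase on the capillary surface, read 11.18, 11.02 and 10.51 in lung and 8.22, 7.46 and 7.96 in heart (difference 3.03 ± 0.24), and Ednrb, the endothelin B receptor that clears endothelin, read 11.79, 12.14 and 11.48 against 9.79, 9.50 and 9.42 (difference 2.23 ± 0.31). Both mark the large alveolar capillary cell and Car4 is also made by alveolar macrophages. Sema3c (4.10), Cyp4b1 (3.88), Scn7a (3.57) and Thbd (3.11), the thrombin receptor thrombomodulin, had larger differences. With the mean of all probe sets Ednrb (0.66) and Aplnr (0.58) were not called. Aplnr, of the small capillary cell, differed by 1.39 ± 0.31 on the probe set used, whereas its ligand Apln read 8.65, 8.91 and 9.26 in lung and 8.75, 9.03 and 8.91 in heart (difference 0.05 ± 0.28). Lpl, lipoprotein lipase, was lower in lung (11.99) than in heart (14.03, adjusted p against heart 0.000222), although Gpihbp1, which holds that enzyme on capillaries, was called (1.06 ± 0.27), though not without the p66KO heart array (0.89) or after median centring (0.98).

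Genes of larger vessels were called in 6 of 16 cases (median 0.44). Efnb2 and Gja4, of arteries, differed by 1.94 ± 0.21 and 1.66 ± 0.19, Hey1, a Notch target, by 1.52 ± 0.16 and Nr2f2, the venous factor, by 1.08 ± 0.26, which lost its call without the WT or the p66KO lung array (0.97 each). Nr2f2 was also not called after repeated quantile normalization (0.99), after median centring (0.92) or with the mean of all probe sets (0.72). Prox1, the lymphatic factor, read 5.67, 5.17 and 5.73 in lung and 7.13, 6.78 and 6.53 in liver, lower than liver (adjusted p against liver 0.00133). Lyve1, a hyaluronan receptor of lymphatics and some macrophages, which stands on the general list, read 11.22, 11.07 and 10.39 in lung and 8.79, 7.33 and 7.34 in heart (difference 3.08 ± 0.48).

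Vessel tone genes were called in 13 of 28 cases (median 0.43). Ace, which converts angiotensin I and degrades bradykinin, read 11.43, 11.37 and 11.88 in lung and 7.46 to 9.26 elsewhere (difference 2.60 ± 0.25, adjusted p = 8.2e-06), while its pathway partners Agt, the angiotensin precursor, and Agtr1a, its receptor, were highest in liver (11.94 and 10.54, against 7.31 and 7.40 in lung, adjusted p against liver 1.62e-06 and 1.45e-06). The BMP receptors Bmpr2 and Acvrl1, mutated in inherited pulmonary hypertension, differed by 2.54 ± 0.25 and 2.51 ± 0.22. Of the nitric oxide and cyclic GMP arm, Pde5a, the phosphodiesterase that sildenafil blocks, read 10.93, 11.04 and 10.88 in lung and 5.54 to 6.54 elsewhere (difference 4.54 ± 0.18), Gucy1b1, a guanylate cyclase subunit, differed by 3.23 ± 0.29 and Npr1, the atrial natriuretic peptide receptor, by 1.68 ± 0.30, while Nos3 was not higher in lung. Gucy1a1, the partner subunit of Gucy1b1, was not called on the probe set used (0.34) and was on another (2.37). Prostaglandin synthase Ptgs2 read 8.60, 7.60 and 5.63, the widest range among the called genes, and Npr3, a clearance receptor, read 8.14, 7.27 and 6.15 and lost its call without the WT lung (0.79), p66KO lung (1.23) or p53KO heart array (1.16).

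Fibroblast and matrix genes were called in 16 of 39 cases (median 0.68). Itga8, the integrin chain that binds nephronectin, read 12.34, 12.53 and 11.92 in lung and 5.29 to 7.57 elsewhere (difference 4.85 ± 0.30, adjusted p = 1.43e-07), and Npnt, nephronectin itself, read 10.83, 10.35 and 9.23 against 5.47 to 6.35 (difference 3.92 ± 0.32). Inmt, a methyltransferase of alveolar fibroblasts, read 14.23, 14.24 and 14.21 in lung and 10.51, 11.94 and 12.07 in liver (difference 2.72 ± 0.50). Of genes that build elastic fibres, Lox, which crosslinks elastin, differed by 3.06 ± 0.29, Mfap4 by 3.06 ± 0.27, Fbln5 by 2.02 ± 0.21, elastin itself, Eln, by 1.62 ± 0.19 and Ltbp2 by 1.37 ± 0.17, all called. Loxl1 (0.89), Mfap5 (0.42), Ltbp4 (0.25) and Fbln1 (-1.53) were not, except Loxl1 with array weights (1.12) or without the p53KO lung (1.06) or WT heart array (1.11) or the WT thymus and p53KO lung arrays together (1.06). With the mean of all probe sets Eln (0.87) and Fbln5 (0.89) were not called either. Pdgfra, a receptor of alveolar fibroblasts, differed by 2.65 ± 0.25. Fibrillar collagens did not pass: Col1a1 differed by 0.39, Col1a2 by 0.65 and Col3a1 by 0.68, with heart next for each, while the adventitial proteoglycans Dcn and Lum were higher in heart (13.21 and 10.58) than in lung (11.89 and 8.13, adjusted p against heart 0.000752 and 0.000206).

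Smooth muscle and pericyte genes were called in 8 of 25 cases (median 0.56). Pdgfrb, the mural cell receptor, differed by 2.16 ± 0.28, Tagln, a contractile protein, by 1.88 ± 0.23 and Postn, a matrix protein, by 1.75 ± 0.21. Mylk, myosin light chain kinase, read 11.41, 11.69 and 11.19 and differed by 1.70 ± 0.48, with the call lost without the p66KO lung (1.57), p66KO liver (1.65) or p53KO liver array (1.63). Acta2, smooth muscle actin, read 12.12, 11.55 and 11.42 in lung and 11.79, 11.49 and 11.62 in heart, with a difference of 0.07 ± 0.26 (adjusted p = 0.847). Pericyte genes shared with heart were below it in lung, among them Rgs5 (8.93 against 12.01), Abcc9 (8.35 against 11.09) and Kcnj8 (7.27 against 9.13), with adjusted p against heart of 1.55e-06, 7.71e-07 and 9.18e-06.

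Of 17 mesothelial and cartilage genes 6 were called (median -0.21), none of them a cartilage gene. Msln, mesothelin, read 8.64, 8.34 and 8.50 in lung and 5.53 to 7.02 elsewhere (difference 1.96 ± 0.25), and Gpm6a (2.97 ± 0.47), Upk3b (1.42 ± 0.30), Lrrn4 (1.54 ± 0.33), Muc16 (1.12 ± 0.17) and Krt19, described above, were also called, Muc16 not without the WT lung array (0.96). The mesothelial genes Upk1b (0.89) and Wt1 (0.20) were not, except Upk1b without the WT heart array (1.04). Cartilage genes of the large airways, Col2a1 (6.98, 6.76 and 7.13), Acan (6.17, 5.88 and 6.17) and Matn1 (4.49, 4.43 and 4.65), did not exceed the highest array of the other tissues.

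**Figure D3:**
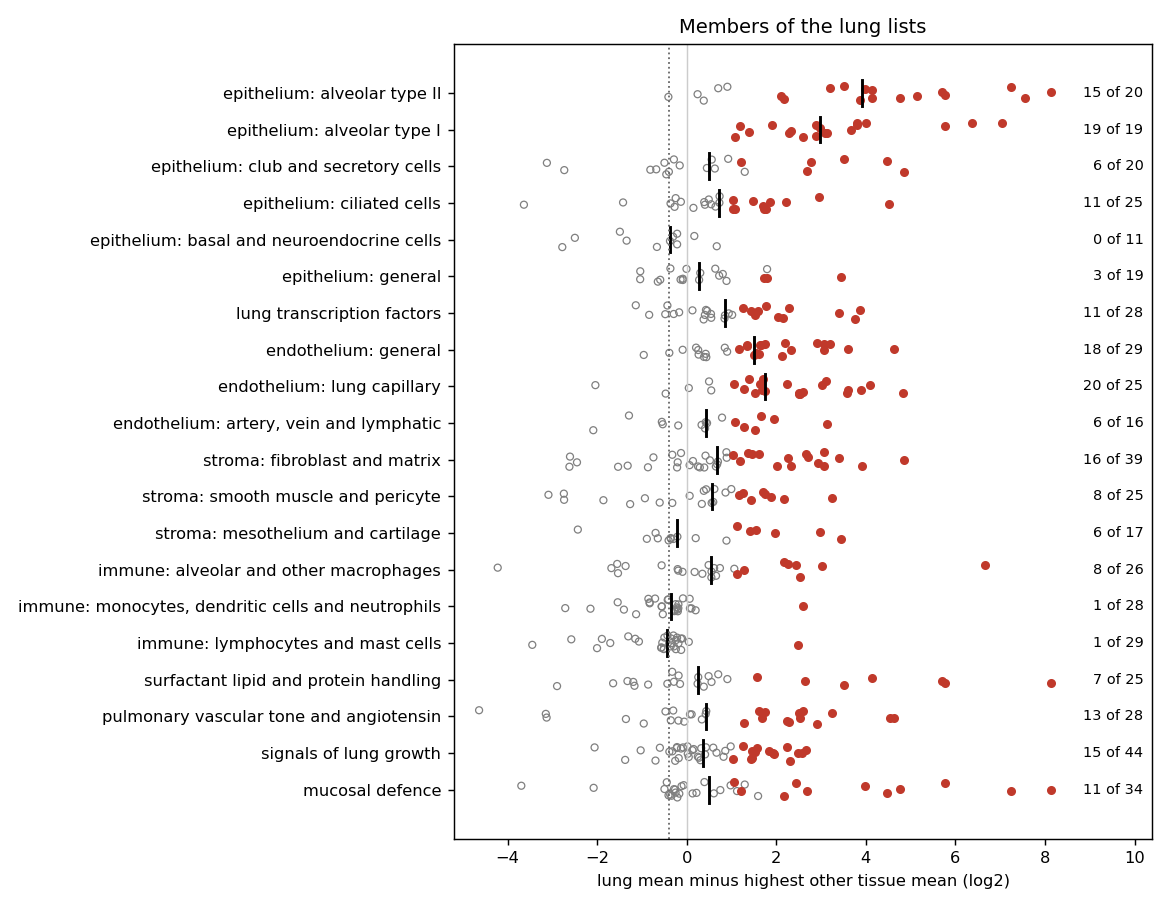
Lung mean minus highest other tissue mean (horizontal axis, log2) for each measured member of 20 lists, filled where called higher in lung and open otherwise, with a black bar at the list median and a dotted line at -0.39, the median of all genes. All 19 type I genes are filled, against 1 of 28 monocyte, dendritic cell and neutrophil genes and 4.3% of all genes.

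Macrophage genes were called in 8 of 26 cases (median 0.55), led by Chil3 of the alveolar macrophage. At an adjusted p under 0.05 (limma), 17 of the 26 were higher in lung than in heart and 2 lower. Against liver 17 were higher and 1 lower, and against thymus 14 were higher and 3 lower. Chil3, a chitinase-like protein, read 13.10, 13.44 and 13.34 in lung and 5.10 to 7.11 elsewhere (difference 6.65 ± 0.23, adjusted p = 1.79e-09). Marco, a scavenger receptor, read 9.16, 8.98 and 7.46 against 5.50 to 6.72 (difference 2.26 ± 0.39), Itgax, the integrin CD11c, differed by 1.28 ± 0.17, Ccl6 by 2.54 ± 0.51 and lysozyme Lyz2 by 2.43 ± 0.28. Marco was lowest on the p53KO lung array, whereas Cd9, a tetraspanin, was highest there, at 10.41, 11.06 and 11.57. Some markers of tissue macrophages in general, the C1q genes and Adgre1, were not called higher in lung. C1qa, C1qb and C1qc, complement subunits, had lung means of 8.87, 8.91 and 8.67 against 10.42, 10.28 and 10.35 in thymus (adjusted p against thymus 0.000898, 0.0541 and 0.00136). Adgre1, the F4/80 antigen, read 9.17, 8.82 and 9.01 in lung and 8.14 to 9.18 elsewhere, and Siglecf, a defining alveolar macrophage marker, differed by 0.74 ± 0.15 at levels under 5.

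On the other immune lists the shares called higher in lung, 3.57% and 3.45%, were near the 4.3% over all genes. Of 28 monocyte, dendritic cell and neutrophil genes only Ace was called (median -0.34), and it stands on the capillary list as well. MHC class II genes read alike in lung and thymus, with H2-Aa at 12.97, 13.03 and 13.20 in lung and 12.34, 13.13 and 13.41 in thymus (difference 0.11 ± 0.30) and Cd74 at 12.82, 12.71 and 12.72 and 11.81, 13.13 and 13.09, and both were higher in lung than in heart (adjusted p = 6.76e-05 and 0.000121) and liver (1.66e-06 and 1.44e-05). The neutrophil alarmins S100a8 and S100a9 read 10.51, 8.91 and 8.24 and 10.56, 8.99 and 8.52, highest on the WT lung array. Of 29 lymphocyte and mast cell genes 1 was called, the receptor Kit (2.48 ± 0.19), whose ligand Kitl, on the capillary list, differed by 2.51 ± 0.30. Ighm, the IgM heavy chain, read 10.42, 12.10 and 10.05, and Jchain 8.80, 11.36 and 8.48, both highest on the p66KO lung array, with lung means (10.86 and 9.54) below the thymus means (12.75 and 10.61). The T cell genes Cd3e (8.60 in lung, 10.60 in thymus) and Cd4 (7.31 and 10.76) were lower in lung than in thymus (adjusted p against thymus 2.88e-05 and 1.53e-05).

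**Figure D4:**
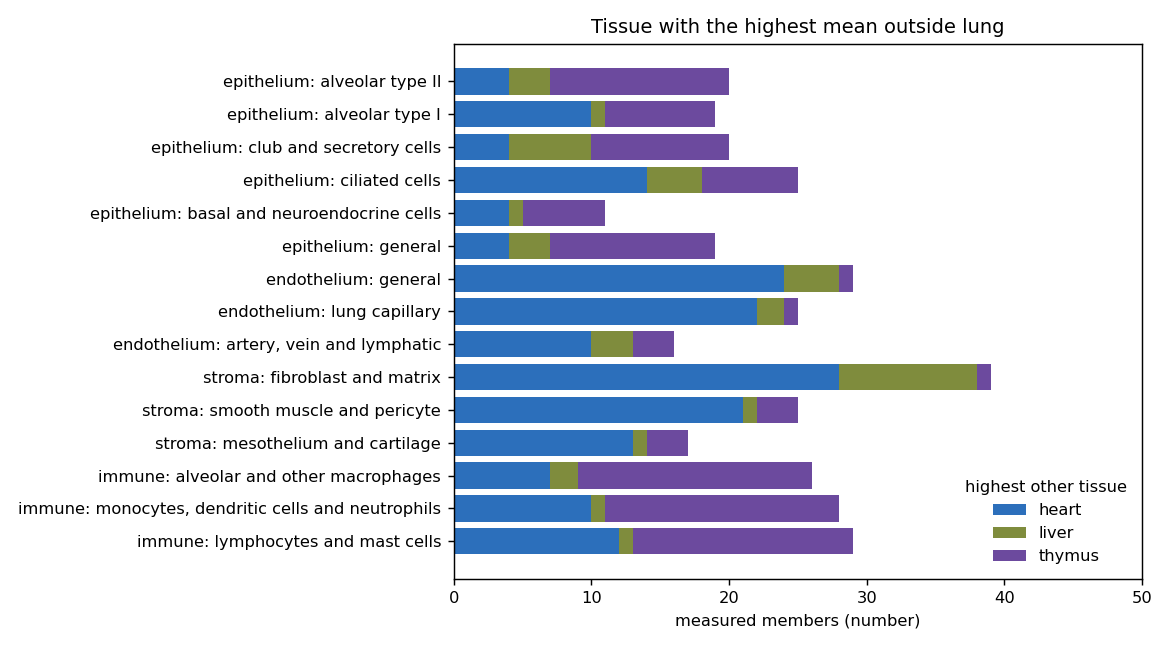
Number of measured members (horizontal axis) of each cell type list by the tissue, among heart, liver and thymus, with the highest mean outside lung. Heart is next to lung for 24 of 29 general endothelial genes, thymus for 13 of 20 type II genes. Over all 18193 genes heart is next for 8019 and thymus for 5868.

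Signals of lung growth were called in 15 of 44 cases (median 0.37). Among ligands, Bmp5 and Bmp4 differed by 2.58 ± 0.21 and 2.49 ± 0.18, Vegfd by 2.30 ± 0.18, Pdgfa, which recruits alveolar fibroblasts, by 1.85 ± 0.29 and Wnt2 by 1.03 ± 0.30, which was not called without the p53KO lung (0.95) or WT liver array (0.83) or after median centring (0.88). Vegfa, the chief endothelial growth factor, read 11.45, 11.67 and 11.17 in lung and 10.20, 6.57 and 6.70 in thymus, where the WT array stood apart. Its difference of 1.95 ± 0.72 sat at the threshold (adjusted p = 0.0498) and no longer passed when any lung, heart or liver array was left out (1.69 to 2.09). Nor did it pass after repeated quantile normalization (1.65), after median centring (1.87) or with the mean of all probe sets (1.24). Among receptors, Pdgfra, Tgfbr2 (1.46 ± 0.29), Fzd1 (1.56 ± 0.22), Fzd2 (1.45 ± 0.21) and Notch2 (1.25 ± 0.20), Notch3 (1.44 ± 0.36, 0.68 and not called without probe sets ending in _x_at and _s_at) and Notch4 (1.93 ± 0.19) were called with their ligand Jag1 (2.23 ± 0.25). With the mean of all probe sets Notch2 (0.60), Notch4 (0.50), Tgfbr2 (0.44), Fzd1 (0.83) and Jag1 (0.90) were not called. Notch1 was not (0.32, with thymus next), and embryonic inducers such as Fgf10 (4.74, 5.24 and 5.58), Fgf9 (6.26, 6.17 and 6.55) and Wnt7b (8.09, 8.17 and 8.69) did not exceed the other tissues.

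Mucosal defence genes were called in 11 of 34 cases (median 0.50), and 9 of the 11 stand on the epithelial or macrophage lists. Il33, an alarmin of barrier cells, read 10.69, 10.54 and 9.61 in lung and 5.37 to 7.22 elsewhere (difference 3.98 ± 0.37, adjusted p = 5.78e-06), and Tlr3, the sensor of double-stranded RNA, differed by 1.05 ± 0.20, which was not called without the WT (0.93) or p66KO lung array (0.98) or after median centring (0.90). Cftr, the chloride channel, read 7.72, 6.90 and 6.80 in lung and 8.05, 4.24 and 4.34 in thymus, and was not called (difference 1.59 ± 0.75, adjusted p = 0.149). It was called without the WT thymus array (2.85) and with array weights (2.63). Pigr, which carries IgA across epithelium, was highest in liver (13.00 against 9.30 in lung), and the sensors Tlr2 (0.40), Tlr4 (-0.12) and Tlr5 (-0.28) did not pass.

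Of 23 stress genes, which cover the heat shock response and the immediate early genes, 4 were called. They were immediate early genes, Fos (9.15, 9.34 and 8.85 in lung, difference 2.54 ± 0.28), Jun (1.5 ± 0.36), Ier3 (2.75 ± 0.33) and the phosphatase Dusp1 (1.41 ± 0.33), whereas Egr1 read 9.46, 10.24 and 9.32 in lung and 10.60 as the mean in thymus. The inducible chaperones Hspa1a and Hspa1b read 10.25, 6.71 and 6.26 and 12.22, 9.81 and 7.86, highest on the WT lung array, and were not called.

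Of the 30 genes with the largest differences, 19 stand on a lung list. The other 11 include Sec14l3, a lipid-binding protein (12.86, 12.83 and 12.99 in lung, 6.19 to 7.55 elsewhere, difference 5.84 ± 0.22), Slco4c1, an organic anion transporter (4.75), Ndnf, a secreted vascular factor (4.66), Cckar, the cholecystokinin receptor (4.53), Cpm, a carboxypeptidase of type I cells (4.5), the chloride channel protein Clic3 (4.43) and Adgrg6, an adhesion receptor (4.15), which fell to 0.91 and lost its call when probe sets ending in _x_at and _s_at were left out. The remaining 4 are genes of stratified epithelium, which lines the oesophagus and upper airway. Krt13 read 9.72, 9.62 and 8.57 in lung and 4.47 to 4.92 elsewhere (difference 4.46 ± 0.25), Krt4 10.95, 11.02 and 10.26, Dmkn 11.74, 11.54 and 10.76 and Mt4, a metallothionein of squamous cells, 9.86, 10.24 and 8.63. All 4 were lowest on the p53KO lung array and remained above every array of another tissue there. The cornified envelope genes Lce3a (10.17, 9.63 and 8.49), Lce1a1 (9.55, 8.83 and 7.17) and Lce1c (8.35, 7.39 and 5.52) were likewise lowest there, and Lce1c on the p53KO lung array fell within the range of the other tissues (4.12 to 5.68) and lost its call without the WT (1.24) or p66KO lung (1.72) or the WT (1.70) or p66KO liver array (1.81). They were grouped after their values were seen, so no count over them is given. In all, 616 of the 783 genes stand on none of the 27 lists.

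The 16 genes lower in lung than in each other tissue had differences of less than 2 on the log2 scale. The largest was that of Egln3, an oxygen-sensing prolyl hydroxylase, at 6.20, 6.45 and 5.97 in lung against 7.68 to 10.06 elsewhere (lung mean minus lowest other tissue mean -1.95, adjusted p = 0.00052). Prxl2b, a prostaglandin synthase, read 7.37, 7.47 and 7.46 against 8.86 to 10.25 (-1.89) and Mpp6, a scaffold protein, 6.73, 6.85 and 6.49 against 7.70 to 10.16 (-1.42). Several encode mitochondrial proteins, among them the ATP synthase subunit Atp5g1 (-1.11), the complex III subunit Uqcrq (-1.08), Chchd3 of the cristae (-1.15) and the ketone body enzyme Bdh1 (-1.78). Lung against heart set these further apart, with Atp5g1 at 9.48, 9.24 and 9.11 in lung and 13.27, 13.15 and 13.29 in heart. Each of these 4 lost its call when some array was left out: Atp5g1 without the p66KO thymus array (-0.99), Uqcrq without the WT lung (-1.0) or WT thymus array (-0.99), Chchd3 without the WT lung array (-0.95) and Bdh1 without the p66KO (-1.53) or p53KO thymus array (-1.6). With the mean of all probe sets Mpp6 (-0.42), Atp5g1 (-0.64), Uqcrq (-0.31) and Chchd3 (-0.72) were not called, nor was Uqcrq without probe sets ending in _x_at and _s_at (-0.10). In all, 10 of the 12 genes with the largest such differences lost the call under at least 1 alternative, and Egln3 and Prxl2b did not. Mean lung levels of genes used in every tissue averaged 10.82 to 11.08, within the range of 10.59 to 11.36 on the other arrays.

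Within lung there was 1 array per genotype, so differences among the lung arrays are values with no test. The 783 genes ranged by a median of 0.53 over the lung arrays, against 0.38 for all genes, and 532 of them were lowest and 110 highest on the p53KO array. No count over all genes stands beside these counts, so they are not read as a trait of the 783 genes. Their median difference from WT lung was -0.33 on the p53KO and 0.02 on the p66KO array, against 0.07 and 0.01 over all genes. At least 2-fold lower on p53KO than on WT lung were 95 of the 783 and 754 of all genes. The medians of p53KO minus WT lung were 0.02 for type II and 0.08 for type I genes, and -0.37 for transcription factors, -0.29 for smooth muscle and pericytes, -0.19 each for ciliated cells and fibroblasts and -0.14 for capillary genes. They were above 0 for lymphocytes and mast cells (0.38), larger vessels (0.19), monocytes, dendritic cells and neutrophils (0.17) and mesothelium and cartilage (0.15). Among the genes that were lowest there, Ptgs2, Lce1c, Ccdc39, Aldh3a1 (7.90, 7.20 and 5.38), an aldehyde dehydrogenase, Sema5a (8.60, 7.81 and 6.33) and Myh8 (7.86, 7.61 and 5.78), a perinatal skeletal myosin, had the widest ranges, and of those highest there, Col4a3, Slc6a14 (5.63, 6.45 and 7.59), an amino acid transporter, and Cd9. The call of Slc6a14 was lost without the p66KO (1.23) or p53KO lung (0.66) or any liver array (1.10 to 1.22). That of Sema5a was lost with the mean of all probe sets (0.88). Fast skeletal muscle genes were also lowest there and were not called, with Myh1 at 10.13, 9.90 and 7.63 and Tnnc2 at 10.73, 10.94 and 8.61, while without the p53KO thymus array both were (2.75 and 2.04). Myh1 was also called without the WT liver array (3.50) and without the WT thymus and p53KO lung arrays together (3.55). The Gapdh gap and the hepatocyte genes were likewise lowest on the p53KO lung array, and their part in the differences was not tested. With each lung array set against the 3 other arrays of its own genotype, 782 of the 783 genes were highest in lung in all 3 genotypes, and 506 by at least 2-fold in all 3. The 783 genes were called on these same arrays, so these counts follow largely from the call and are not separate support for it. Of the 92 lung-restricted genes, 79 ranged by under 1 over the lung arrays.

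**Figure D5:**
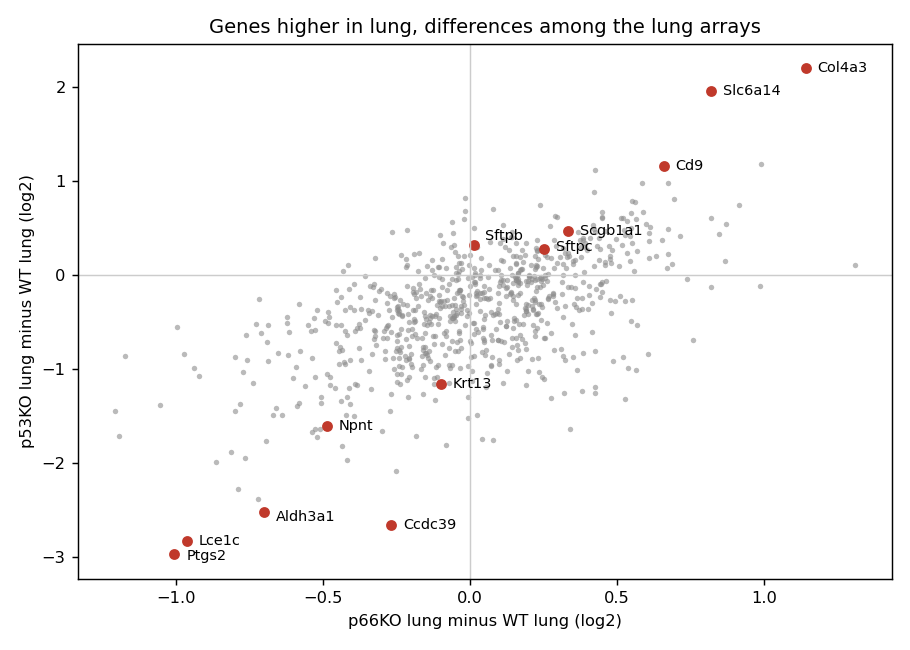
Difference from WT lung on the p66KO array (horizontal axis, log2) and on the p53KO array (vertical axis, log2) for the 783 genes higher in lung, 1 point a gene, with 12 named genes in red. Most points lie below 0 on the vertical axis (median -0.33), while Sftpc, Sftpb and Scgb1a1 lie above it.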

How the data were processed

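Total RNA from lung, heart, liver and thymus was labelled by the in vitro transcription route and hybridised to Mouse Genome 430 2.0 arrays. The authors deposited log2 values, which the submitters' processing notes credit to RMA in Partek 6.5. Of 45101 probe sets, 64 controls were left out. Of the rest 34945 had 1 gene symbol, 932 several and 9160 none, and the probe set with the highest mean stood for each of 18193 genes. Groups followed the tissue labels, and tissue means were compared with limma 3.58.1 in R 4.3.3 over all 12 arrays (8 residual degrees of freedom, Benjamini-Hochberg adjustment over 18193 genes, 3 contrasts), after testing on simulated data. Array means ran from 6.55 to 6.60, and the number of arrays limits precision. The members and lists were chosen with earlier results of these data known. Genes were named by a rule (the leading genes, the ends of each list and the widest ranges in lung), and 87 others for a known role after their values were seen. The alternatives were a genotype block, array weights, an intensity trend, repeated quantile normalization, median centring, the mean of all probe sets, filters on dim and cross-hybridising probe sets, other thresholds, single genotypes and leaving out each array, and, chosen after seeing the data, leaving out the WT thymus and p53KO lung arrays together. Python 3.11.15 with pandas 2.3.3 made the tables. Of the RefSeq promoter table, windows were matched by gene symbol.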

Additional observations from a re-analysis of the deposited data

Results flagged for a closer look

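Probe sets with no gene symbol were not used in the comparison. Of 9160 such probe sets, 98 (1.07%) were higher in lung than in each other tissue by the same thresholds, against 4.3% of named genes. The shares are not like for like. The 1.07% counts every such probe set in a fit over all probe sets, and the 4.3% counts the probe set with the highest mean of each gene. The largest difference was 4.13 for a probe set that read 10.98, 11.65 and 10.33 in lung.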

How the results depend on the processing

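The count of genes higher in lung than in each other tissue was 783 as reported. It was 791 with genotype as a replicate block, 928 with array weights, 688 after repeated quantile normalization, 698 after median centring, 631 with the mean of all probe sets and 707 to 901 when single arrays were left out. With a fold threshold of 0 or 2 on the log2 scale it was 1275 or 249. No call count moved by over 1.5 times under the block, and the labels give same-genotype arrays no more in common than the genotype. Their deviations from the tissue means correlated by -0.253 to 0.479. The count lower in lung was 26 after quantile normalization and after median centring, 5 with the mean of all probe sets, 25 without the WT thymus and p53KO lung arrays, 172 or 0 with a threshold of 0 or 2, and 9 to 22 with single arrays left out. Array weights raised calls to 5561 higher and 7048 lower against heart, 5385 and 5738 against liver, and 4605 and 6299 against thymus. Lower calls against heart were 4623 after median centring, 1817 among brighter genes and 5546 without the WT thymus and p53KO lung arrays, and against thymus 3559 without those arrays. With single arrays left out, higher and lower calls ran from 2592 to 4670 and 1535 to 4271 against heart, 2688 to 4096 and 1959 to 2899 against liver, and 2206 to 3215 and 1217 to 3450 against thymus, and lung-restricted genes from 78 to 108. Lce1c read -0.16 on the p53KO arrays alone and Ccdc39 -0.08 without probe sets ending in _x_at and _s_at, and both were otherwise positive. Of all 783 genes called higher, only 472 were called under every one of 19 alternatives. Of the 92 lung-restricted genes, 90 were. Of 151 named genes called higher, 35 lost the call under at least 1 of 21 alternatives, 18 of them with the mean of all probe sets, and of 12 called lower 10 did. The cause was not tested. Signal near background limits Siglecf, Agr2 and other genes with lung levels under 5.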
